A study of Mus musculus with 3 samples.

Results

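The genes described here build, brace and move the actin cytoskeleton of activated regulatory T cells. They are 54 listed genes with roles in actin turnover, branching, contraction, membrane linkage and cell migration, out of 55535 mouse genes measured, and all 54 were found by symbol. They were measured by polyA-selected RNA-seq in 3 libraries of activated regulatory T cells, the CD4 T cells that hold back immune responses and depend on the transcription factor Foxp3. All 3 libraries are labelled as technical replicates 1, 2 and 3 (here libraries 1, 2 and 3) of 1 biological replicate, taken from a male adult mouse of 4 months and the strain Foxp3CreERT2 x Rosa26YFP. These alleles place an inducible Cre recombinase at Foxp3 and a yellow fluorescent reporter at Rosa26, and every library carries both. The labels trace the primary cells to bone marrow haematopoietic cells and give no step of activation or sorting. There was no control group, so levels and the spread between libraries are given and no conditions are compared. Error values are the SD over the 3 libraries. They measure only the spread between these libraries, which may be technical, and say nothing of differences between animals.

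A T cell crawls by pushing its front forward with a branched actin mesh and pulling up its rear with myosin. Rac GTPases switch on the WAVE complex, and Cdc42 switches on WASP, and both in turn switch on the Arp2/3 complex, which starts a new filament on the side of an old one. Profilin feeds actin monomers to growing ends, beta-thymosins hold monomers in reserve, capping protein stops growth, and cofilin and coronins take old filaments apart. Blood cells use their own forms of many of these proteins, and inherited loss of several of them, among them WASP, DOCK8, coronin-1A and ARPC1B, causes immune deficiency in humans.

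The libraries held 10981924, 9700630 and 6667391 expected counts (fragments assigned to genes) in libraries 1, 2 and 3. T cell markers were present in every library, with 6 of 6 at or above 1 TPM (transcript abundance scaled for length and depth) and a summed level of 3754 to 5472 TPM. Markers of smooth muscle or fibroblasts summed to 0.220 to 0.460 TPM and those of platelets or megakaryocytes to 0.890 to 1.95 TPM, with Gp9, Gp1bb, Myh11 and Des at 0 in each library. B cell markers summed to 16.6 to 40.7 TPM, plasma cell markers to 9.62 to 101 TPM, myeloid markers to 5.43 to 19.6 TPM and endothelial or epithelial markers to 2.03 to 3.04 TPM. Erythroid globins summed to 790 TPM in library 1, against 2.77 TPM in library 2 and 21.2 TPM in library 3. Foxp3 itself had 29.5, 28.7 and 49.8 TPM in libraries 1, 2 and 3, so the defining markers of the labelled cell type were present. Library 3, the shallowest, stood apart over the whole transcriptome. Of all tested genes, 35.0% differed at least 1.5-fold between the 3 libraries beyond sampling noise. Leaving a library out narrows the range by construction, and the share was 25.1%, 27.1% and 7.68% without library 1, 2 and 3. Fewer cells of a kind and less RNA per cell cannot be told apart in such bulk libraries.

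Together the 54 genes took 6.44%, 6.62% and 4.81% of all counts in libraries 1, 2 and 3. Their median level was 263 TPM, against 20.9 TPM for the protein-coding genes that reached 1 TPM in every library. All members but Vcl reached 10 TPM in all 3 libraries, and 37 reached 100 TPM, as 2.18% of all mouse genes did. The 2 cytoplasmic actins and 2 beta-thymosins supplied 59.5%, 57.3% and 55.6% of the summed TPM of the members in libraries 1, 2 and 3. The levels by role show this steep order, with monomer genes at the top and Vcl, which encodes the adhesion protein vinculin, far below the rest.

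**Figure D1:**
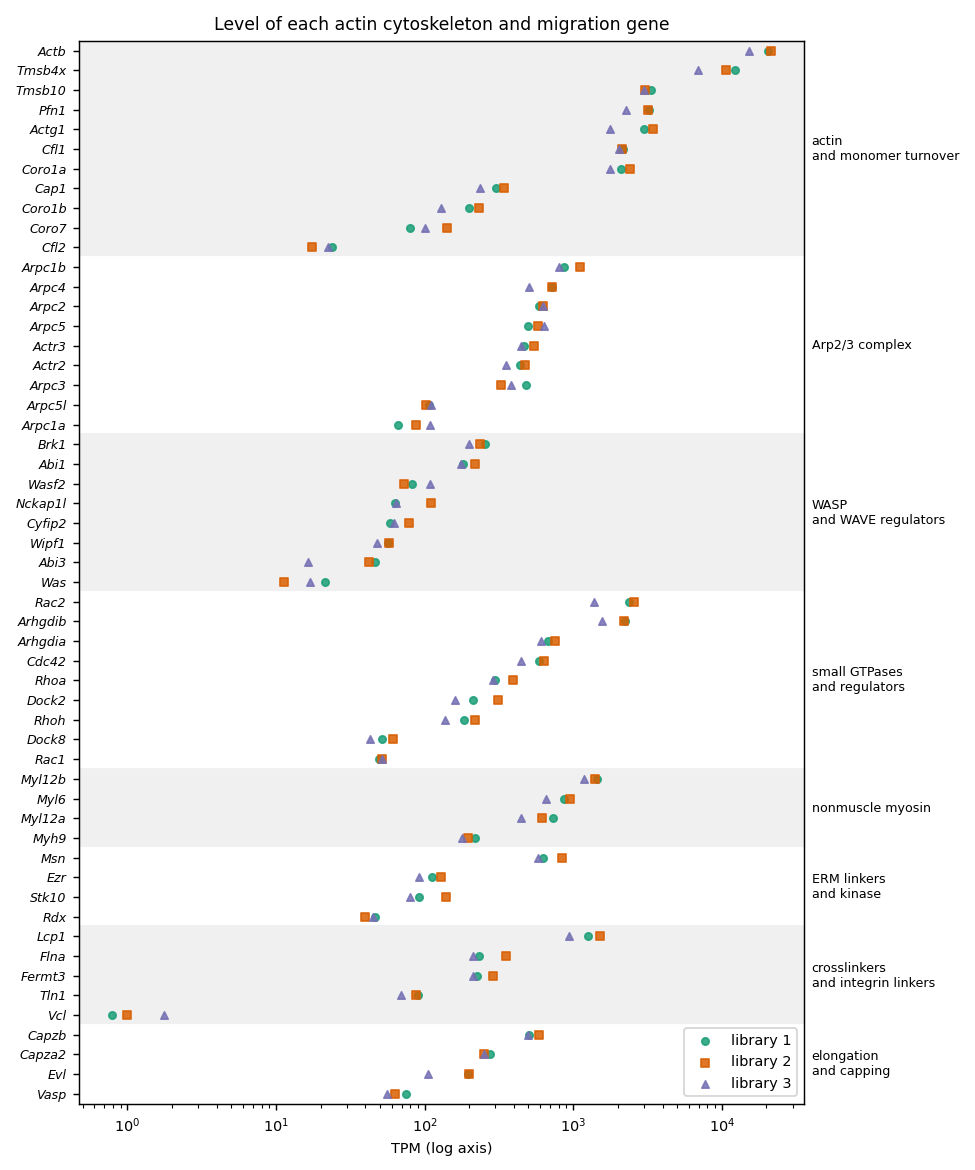
TPM (log axis) of each of the 54 genes in libraries 1, 2 and 3, grouped by role and ordered by mean level within a role. Actb lies highest at 15278 to 21590 TPM and Vcl lowest at 0.790 to 1.77 TPM.

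Several members come in near-copies, and the sequences below show how much, or how little, a read has to tell them apart by. The first 60 coding bases of the 2 cytoplasmic actins are given 5′ to 3′ from the GENCODE M21 transcripts on GRCm38, with capitals where they differ from each other. Actb lies on the minus strand at chr5:142905627-142905686 and Actg1 on the minus strand at chr11:120348032-120348091.
Actb: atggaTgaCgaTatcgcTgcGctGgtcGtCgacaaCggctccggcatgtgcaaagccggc
Actg1: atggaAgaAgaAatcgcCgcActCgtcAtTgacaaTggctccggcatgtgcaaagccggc
Over all 1125 coding bases the pair was 88.6% identical. The mature proteins are known to differ only near this start.

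The beta-thymosins Tmsb4x (minus strand, chrX:167207504-167208036 from first to last coding base of its shorter reading frame) and Tmsb10 (minus strand, chr6:72957621-72958012) both have 132 coding bases in these forms, shown whole, again with capitals where they differ.
Tmsb4x: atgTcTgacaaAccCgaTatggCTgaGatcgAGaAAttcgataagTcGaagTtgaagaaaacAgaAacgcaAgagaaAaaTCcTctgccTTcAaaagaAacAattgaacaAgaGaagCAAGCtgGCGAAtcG
Tmsb10: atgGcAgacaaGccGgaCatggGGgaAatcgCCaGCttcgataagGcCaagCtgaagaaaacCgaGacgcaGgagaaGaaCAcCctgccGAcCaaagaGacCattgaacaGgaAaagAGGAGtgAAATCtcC
Another Tmsb4x transcript starts its reading frame 18 coding bases earlier, with atgctccttccagcaacc.

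Actb, which encodes beta-actin, had 20550, 21590 and 15278 TPM in libraries 1, 2 and 3. Actg1, which encodes gamma-actin, had 3023, 3449 and 1760 TPM. Both were lowest in library 3, by a larger factor for Actg1. Actb made up 87.6% ± 1.80 of the TPM of the actin family and Actg1 12.3% ± 1.78 (SD, n = 3), and Actb exceeded Actg1 by 7.25-fold ± 1.27. That ratio differed between the tables, as it was 11.6 ± 1.03 in the second deposited quantification and 6.36 in the M4 counts per coding base (whole-number counts on the older annotation release M4). The muscle actins Acta1, Acta2 and Actc1 were at 0 to 1.32 TPM, but Actg2, smooth-muscle gamma-actin, was listed at 37.2, 30.1 and 13.7 TPM in libraries 1, 2 and 3. Its coding sequence was 82.8% identical to that of Actb, and the part that shared reads play in its value was not tested. Acta2, a smooth-muscle actin of the marker list, stayed at 0.120 to 0.300 TPM.

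The genes that hold and feed actin monomers followed. Tmsb4x had 12341, 10621 and 6887 TPM in libraries 1, 2 and 3, and Tmsb10 had 3362, 3041 and 3008 TPM. Tmsb4x was lowest in library 3 while Tmsb10 stayed nearly level, so Tmsb4x exceeded Tmsb10 by 3.67-fold, 3.49-fold and 2.29-fold. Summed, the beta-thymosins were at 0.598 ± 0.0620 of the summed actins. Pfn1, profilin-1, had 3233, 3200 and 2254 TPM. In the main table it kept a nearly fixed proportion to the actins, at 0.137, 0.128 and 0.132 of their summed TPM in libraries 1, 2 and 3. In the second quantification the proportion was higher in library 3, at 0.0904, 0.0896 and 0.109. The proportions to actin differed between tables. In the M4 counts per coding base, where Actb came to 7808 TPM, the beta-thymosins stood at 1.66 and profilin at 0.557 of the actins.

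The genes that take filaments apart were led by Cfl1, which encodes cofilin-1, with 2157, 2141 and 2040 TPM in libraries 1, 2 and 3. It was among the steadiest members, with a coefficient of variation of 3.01%. Cfl2, the muscle-enriched cofilin, had 24.0, 17.4 and 22.5 TPM, so Cfl1 exceeded it by 101-fold ± 18.9. Cap1, which works with cofilin to recycle actin monomers, had 302, 341 and 237 TPM. Coro1a, coronin-1A of blood cells, had 2104, 2424 and 1772 TPM and supplied 82.4% ± 1.57 of coronin TPM. Coro1b, a coronin found in many tissues, had 200, 231 and 129 TPM, and Coro7, a Golgi-associated coronin, had 80.0, 141 and 101 TPM.

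The Arp2/3 complex holds 1 copy each of 7 subunits, 2 of which come in alternative forms. Arpc1b, the blood-cell form of subunit 1, had 873, 1114 and 808 TPM in libraries 1, 2 and 3, and its paralogue Arpc1a had 66.6, 87.5 and 108 TPM. The ratio of Arpc1b to Arpc1a was lower in library 3, at 7.46, than in libraries 1 and 2, at 13.1 and 12.7. Arpc5 had 495, 576 and 637 TPM and Arpc5l had 107, 103 and 111 TPM. Arpc4, which with Arpc2 forms the core of the complex, had 722, 721 and 502 TPM, and Arpc2 had 588, 628 and 623 TPM. Actr2 and Actr3, the actin-like subunits that seed the branch, had 436, 474 and 355 TPM and 468, 546 and 444 TPM. Arpc3 had 482, 328 and 381 TPM. With paralogues summed, the highest of the 7 positions exceeded the lowest by 2.15-fold, 3.67-fold and 2.58-fold in libraries 1, 2 and 3. The summed Arpc1 position was highest in every library, at 1.67 ± 0.150 times the mean of the complex. Actr2 was lowest in libraries 1 and 3 and Arpc3 in library 2. Exons of other genes cover 18.2% of the exon bases of Arpc1b and 12.2% of those of Arpc4. The largest overlap lies on the opposite strand for Arpc1b and on the same strand for Arpc4.

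Genes of the WASP and WAVE arms, which switch the Arp2/3 complex on, had a median level of 72.8 TPM, against 486 TPM for the Arp2/3 genes. Was, which encodes WASP, had 21.5, 11.3 and 17.0 TPM in libraries 1, 2 and 3, and Wasl, its widely expressed paralogue N-WASP, had 10.4, 8.49 and 13.6 TPM. Was was higher in each library, by 1.55-fold ± 0.454. Wipf1, which encodes WIP, the partner that protects WASP from degradation, had 56.8, 57.4 and 48.2 TPM, or 3.51 ± 1.34 times the level of Was. Wasf2, or WAVE2, had 81.7, 72.9 and 109 TPM and was 99.9% ± 0.121 of the WAVE family. It exceeded Was by 5.54-fold ± 1.51 in the main table. The ratio was smaller elsewhere, at 3.72 ± 0.456 in the second quantification and 3.05 in the M4 counts per coding base. A transcript model of 483 bases took 53.2% ± 2.06 of Wasf2 TPM.

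Of the other WAVE complex subunits, Brk1, the smallest, led with 255, 238 and 200 TPM in libraries 1, 2 and 3. Abi1 had 181, 217 and 176 TPM. Nckap1l, the blood-cell subunit HEM1, had 62.9, 110 and 64.6 TPM, and its paralogue Nckap1 had 1.61, 1.74 and 2.00 TPM. Library 2 was the high one for Nckap1l and not for Nckap1. Cyfip2 had 58.4, 79.0 and 62.2 TPM, and Cyfip1 had 59.5, 68.7 and 25.1 TPM. The 2 Cyfip genes were thus close in libraries 1 and 2 and apart in library 3, where Cyfip1 was low. Abi3 had 46.2, 42.5 and 16.4 TPM, and exons of other genes cover 75.8% of its exon bases. The largest overlap, 2913 bases, lies opposite Zfp652, which had 11.1 TPM on average. The sources used here do not say whether the counting used strand, so reads of the 2 genes may not be told apart. Among the 5 positions of the complex, with paralogues summed, the highest exceeded the lowest by 3.96-fold, 3.75-fold and 3.08-fold. The Abi genes and Brk1 stood at 1.58 ± 0.0431 and 1.53 ± 0.140 times the mean of the complex, and the Nckap1 genes at 0.528 ± 0.120.

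**Figure D2:**
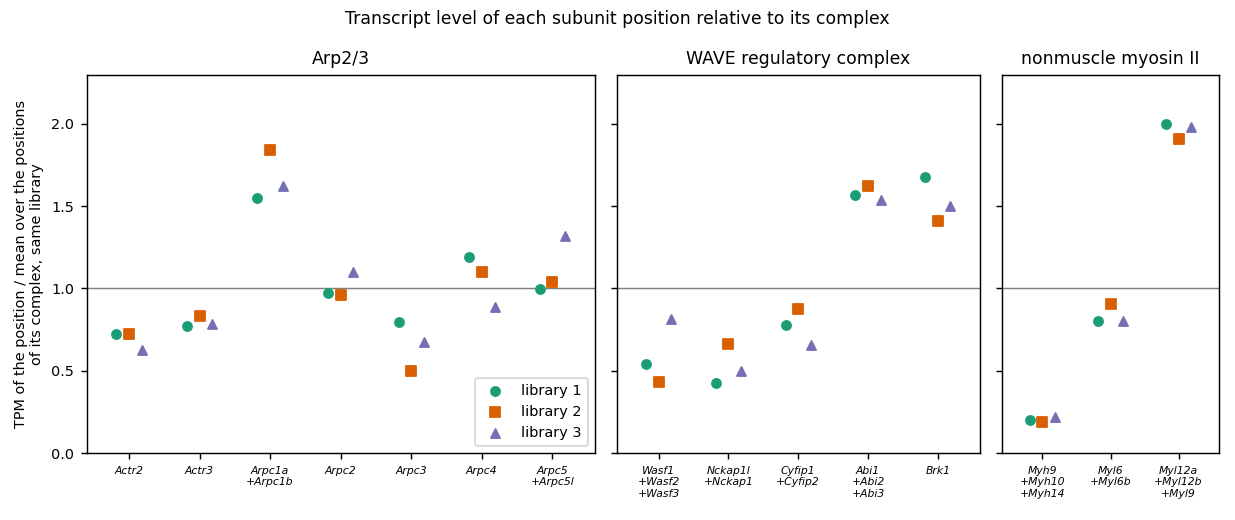
TPM of each subunit position divided by the mean over the positions of its complex in the same library, for the Arp2/3 complex, the WAVE complex and nonmuscle myosin II, with 1 point per library. The summed Arpc1 genes lie above 1 in all libraries, and the myosin heavy chains lie lowest at 0.186 to 0.221.

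Rac2, the Rac GTPase of blood cells, was the highest of the GTPase genes, with 2369, 2579 and 1375 TPM in libraries 1, 2 and 3. Rac1, expressed in nearly all tissues, had 49.5, 51.6 and 52.1 TPM. Rac2 was low in library 3 and Rac1 was not, so their ratio was 47.9, 49.9 and 26.4. A transcript model of 254 bases took 47.4% ± 2.19 of the TPM of Rac2, and the ratio from the M4 counts per coding base was 68.3. Cdc42, which controls polarity and WASP, had 585, 636 and 443 TPM. Rhoa, which drives myosin contraction, had 297, 391 and 290 TPM. Rhoh, a GTPase of blood cells that cannot hydrolyse GTP, had 185, 218 and 137 TPM.

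The regulators of these GTPases were also biased to blood-cell forms. Dock2, which activates Rac and is needed in mice for lymphocyte migration, had 213, 312 and 161 TPM in libraries 1, 2 and 3. Its paralogue Dock1 had 0.0700, 0.110 and 0.0600 TPM. Dock8, which activates Cdc42, had 51.8, 61.5 and 43.1 TPM. Arhgdib, a RhoGDI of blood cells that keeps GTPases soluble and inactive, had 2231, 2207 and 1574 TPM, and Arhgdia had 675, 750 and 604 TPM. Summed, the 2 RhoGDIs stood at 0.797, 0.730 and 0.896 of the summed TPM of Rac1, Rac2, Cdc42, Rhoa, Rhoh, Rhog and Rhoc.

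Nonmuscle myosin II holds heavy chains, essential light chains and regulatory light chains in equal numbers. Myh9, the heavy chain of myosin IIA, had 219, 195 and 178 TPM in libraries 1, 2 and 3 and was 98.6% ± 0.396 of the nonmuscle heavy chains. Myl6, the essential light chain, had 874, 956 and 652 TPM. The regulatory light chains Myl12a and Myl12b had 729, 619 and 449 TPM and 1452, 1411 and 1176 TPM. Light chain transcripts were therefore in excess of heavy chain transcripts in all libraries, by 9.69-fold ± 0.685 for regulatory and 4.14-fold ± 0.646 for essential chains. Myl12a and Myl12b are neighbours on chromosome 17 with coding sequences 96.5% identical. Myl12b is carried by 2 overlapping gene entries that were summed here, so its split from Myl12a is uncertain. The ratio of Myl12b to Myl12a was 1.99, 2.28 and 2.62 in the main table and 0.992 in the M4 counts per coding base.

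Msn, which encodes moesin, was the leading linker between actin and the plasma membrane, with 628, 848 and 583 TPM in libraries 1, 2 and 3. Its paralogues Ezr (ezrin) and Rdx (radixin) had 112, 129 and 91.5 TPM and 46.5, 39.8 and 45.3 TPM. Moesin thus supplied 81.4% ± 1.81 of the TPM of the 3 linkers. Stk10, a kinase that activates these linkers in lymphocytes, had 91.2, 140 and 79.4 TPM, against 12.7, 14.2 and 19.5 TPM for its paralogue Slk.

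Lcp1, or L-plastin, the blood-cell bundling protein, was the highest of the crosslinkers, with 1266, 1512 and 937 TPM in libraries 1, 2 and 3. Pls3, its paralogue in solid tissues, had 1.25, 1.06 and 0.830 TPM. Flna, filamin A, had 234, 351 and 212 TPM. The integrin activators Tln1 (talin-1) and Fermt3 (kindlin-3 of blood cells) had 90.7, 88.2 and 69.9 TPM and 226, 291 and 213 TPM. Vcl, which in adherent cells binds talin under tension, had 0.790, 0.990 and 1.77 TPM from 36, 36 and 24 counts. Its TPM was highest in library 3 although its scaled counts were level, with a highest-to-lowest ratio of 1.11. Exons of other genes cover 25.5% of the Vcl exon bases. The largest overlap is with Ap3m1 on the opposite strand, which had 59.7 TPM.

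Among genes that extend or cap filament ends, Capzb, the beta chain of capping protein, led with 507, 590 and 497 TPM in libraries 1, 2 and 3. Capza2, one of its alpha chains, had 274, 253 and 253 TPM. With Capza1 added, alpha chains exceeded the beta chain by 1.33-fold ± 0.0970, where the protein holds equal numbers. Evl and Vasp, which keep filament ends growing, had 197, 199 and 106 TPM and 75.3, 62.9 and 55.8 TPM. Evl was higher than Vasp in every library, by 2.56-fold ± 0.632, and the third gene of the family, Enah, stayed at 0.230 to 0.550 TPM.

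Among the pairs listed, the genes set down as blood-cell forms were the higher ones almost throughout. Of 15 pairs of such a gene and its wider relative, among them Arpc5 over Arpc5l, the first gene was higher in all 3 libraries in 14. The pairs were listed with earlier results of these data known, so this count describes the list and is no test. The exception was Cyfip2 against Cyfip1, where Cyfip2 was higher in 2 of 3 libraries. The widest differences were those of Lcp1 over Pls3, at 9.22 ± 0.27 on the log2(TPM + 1) scale, Dock2 over Dock1, at 7.68 ± 0.44, and Fermt3 over Fermt2, at 7.51 ± 0.11. The narrowest among the 14 were Was over Wasl, at 0.56 ± 0.37, Abi3 over Abi2, at 1.28 ± 0.81, and Arhgdib over Arhgdia, at 1.55 ± 0.17. Most Abi3 TPM of the main table lay in transcripts annotated without a coding sequence. By the M4 counts per coding base the first gene was higher in all 15 pairs. In the order of these means, the ranges over the libraries overlapped for 9 of 14 neighbours. The difference was smallest in library 3 in 13 of the 15 pairs, and in 11 of the 15 by plain ratios. The pseudocount of 1 understates the widest ratios and sets their order. By plain TPM ratios Dock2 over Dock1 was the widest, at 2850 ± 181, against 1189 ± 213 for Lcp1 over Pls3. However, Dock1 rests on 4, 5 and 2 counts and Fermt2 on 3, 5 and 2. The second quantification gave smaller log2 differences, at 8.68 for Lcp1 over Pls3, 6.75 for Dock2 over Dock1 and 6.09 for Fermt3 over Fermt2.

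**Figure D3:**
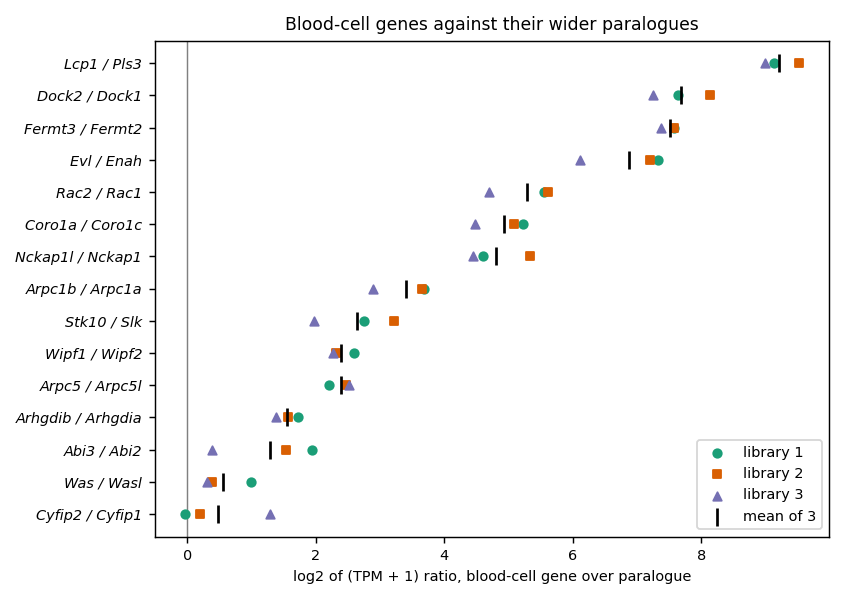
Difference of log2(TPM + 1) between the blood-cell gene, as listed, and its wider paralogue for 15 pairs, with 1 point per library and a bar at the mean. Values right of 0 mean a higher blood-cell gene, and only Cyfip2 over Cyfip1 reaches below 0, at -0.03 in library 1.

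Some members are chosen a second time, by splicing. Cdc42 (minus strand, chr4:137319696-137357720) ends in 1 of 2 last exons, and the transcript with the farther one, which is the form of most tissues, carried 98.3%, 98.2% and 97.2% of its TPM in libraries 1, 2 and 3. The brain form carried 1.67%, 1.83% and 2.76%. The second quantification gave the form of most tissues 97.7%. The last 87 coding bases of each, at chr4:137321106-137321192 and chr4:137322533-137322619, are shown because they set the protein's tail, with capitals where the 2 differ.
Cdc42 common form: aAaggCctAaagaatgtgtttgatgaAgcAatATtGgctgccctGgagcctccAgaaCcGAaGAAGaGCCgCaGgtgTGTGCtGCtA
Cdc42 brain form: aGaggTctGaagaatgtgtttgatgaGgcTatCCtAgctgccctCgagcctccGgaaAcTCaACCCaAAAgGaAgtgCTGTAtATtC
The 2 transcripts differ at 30 of 573 coding bases, and the exon choice was steady over the libraries.

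For Rac1 the share of a splice form was high but hard to read. The transcript that holds the extra 57-base exon of the form called Rac1b (minus strand, chr5:143509597-143509653) carried 88.7% ± 3.96 of Rac1 TPM. A model without the exon carried 4.85%, 0% and 3.82% in libraries 1, 2 and 3. The exon is shown because it is what separates the 2 proteins.
Rac1b exon: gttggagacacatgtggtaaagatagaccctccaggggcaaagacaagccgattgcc
The 2 models also differ at their last exon, since the one without the Rac1b exon is 4159 bases long and the one with it 2325 bases. Moreover, exons of other genes cover 51.4% of the exon bases of Rac1, with the largest overlap opposite Daglb. The tables used here do not count the exon itself, so whether the share follows the exon or the length of the last exon was not tested.

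Evl carried a 63-base exon (plus strand, chr12:108683348-108683410), which adds the insert of the form called EVL-I, in 68.4%, 69.6% and 74.3% of the TPM of the transcripts that span it in libraries 1, 2 and 3. The second quantification gave 68.2% ± 2.59, so the share of models with the exon was similar in both. The expressed models with and without it also start at different places. A model of 569 bases with 39.9% ± 3.02 of Evl TPM does not span it. The exon itself was not counted, so whether the share follows the exon was not tested.
Evl exon: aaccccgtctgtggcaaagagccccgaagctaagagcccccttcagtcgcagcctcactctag
Capzb, by contrast, nearly lacked the 113-base exon that makes the muscle form of the beta chain, whose coding part is shown (plus strand, chr4:139288861-139288960). Transcripts with the exon came to 0%, 0.325% and 0.947% of the spanning TPM in libraries 1, 2 and 3, and to 2.13% ± 1.18 in the second quantification.
Capzb exon: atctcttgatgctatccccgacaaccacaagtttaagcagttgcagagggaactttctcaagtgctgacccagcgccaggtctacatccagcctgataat
The leading Capzb transcript was less certain, because the transcript that led with 48.1% ± 5.11 in the main table carried 4.73% ± 5.34 in the second. The same held for Tmsb4x, where the transcript with the longer reading frame had 77.2%, 74.8% and 73.0% in libraries 1, 2 and 3 of the main table and 43.9% ± 7.00 in the second. The leading transcript was the same in both quantifications for 46 of the 53 members with 1 gene entry. Short models took large TPM shares of several genes, such as a 241-base model with 32.2% ± 5.98 of Actb. Gene TPM sums over such models.

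The RefSeq start windows of a few members hold a known actin-gene element. Of the 54 genes, 47 have a RefSeq window of 300 bases, from 250 before to 50 after the gene start on GRCm38.p6. A CArG box, the site of serum response factor, was found on either strand in 4 of them, namely Actg1, Myl6, Arpc4 and Vcl, or 8.51%, against 1.81% of all genes with such a window. A stretch of 60 bases around the box (capitals) is shown for the highest of the 4, Actg1 (minus strand, chr11:120348551-120348610).
Actg1: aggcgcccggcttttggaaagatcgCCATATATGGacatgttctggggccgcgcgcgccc
The box began 90 bases before the RefSeq start of Actg1 on which the window is placed, which is not the GENCODE start. Myl6 has 2 windows, and the one with the box lies around a second RefSeq start inside the gene, within the span of its leading transcript. A match describes these letters and is no evidence of binding.

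The labels call the 3 libraries technical replicates, and the counts show how far the members differed between them. Genes averaging 10 counts or more were set against their sampling noise across libraries 1 to 3 by a chi-square test on counts scaled by trimmed mean of M values (TMM), with Benjamini-Hochberg adjustment over all 12996 tested genes. Of 54 members 53, all but Vcl, differed at an adjusted p below 0.05, against 65.3% of all tested genes. Deep genes pass such a test on small differences, and among genes averaging 1000 counts or more the share was 91.6%. At least 1.5-fold between the highest and lowest library were 18 members, or 33.3%, against 35.0% of all tested genes, a share near the background. Among the 47 members averaging 1000 counts or more, 14 did so (29.8%), against 22.6% of all genes that deep. Leaving out library 3 left 3 such members, Arpc3, Was and Nckap1l, against 7.68% of genes, and leaving out library 2 left 8, against 27.1%. When the trended dispersion that edgeR estimates from the same libraries was added to the noise, 0 members passed, against 1.31% of tested genes, and 1 member, Abi3, had an unadjusted p below 0.05, as 5.50% of tested genes did.

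The direction of these differences was less even than their size. In 37 of 54 members (68.5%) the lowest scaled count was in library 3, against 40.7% of all tested genes. Among those averaging 1000 counts or more it was 35 of 47 members (74.5%), against 46.3% of genes. Highest in library 3 were 7 members (13.0%), against 40.6% of all tested genes. The median log2 deviation of the members from their own mean over the libraries was 0.12, 0.10 and -0.18 in libraries 1, 2 and 3. For all tested genes it was 0.01, 0.00 and 0.01. All 4 myosin genes were lowest in library 3, with a median of -0.21 there. T cell markers summed to 5378, 5472 and 3754 TPM and plasma cell markers to 53.1, 9.62 and 101 TPM in libraries 1, 2 and 3. B cell markers summed to 40.7, 16.6 and 28.3 TPM and myeloid markers to 19.6, 5.43 and 18.7 TPM. Erythroid globins summed to 790, 2.77 and 21.2 TPM, so these lists were highest in library 1. The remaining lists summed to 3.04 TPM or less in each library. Cd3e, Cd3d, Trac and Cd4 had their lowest TPM in library 3, at 811, 358, 2054 and 244 TPM, while Foxp3 was highest there. The part of cell makeup in the members' lower counts was not tested. The Arp2/3 genes did not follow, with a median of -0.01 and 4 of 9 lowest in library 3.

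**Figure D4:**
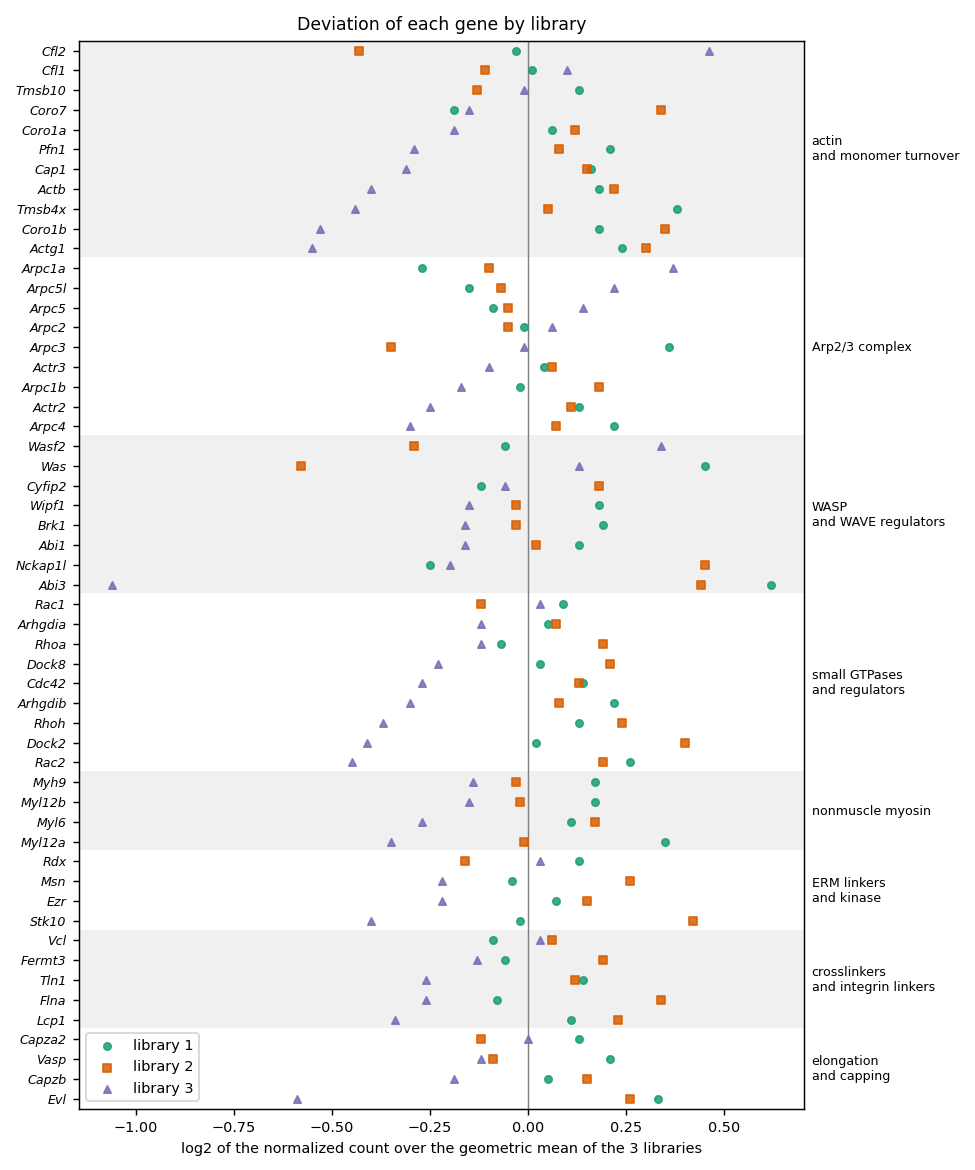
Log2 of each member's scaled count over its geometric mean of the 3 libraries, by role, with 1 point per library. Library 3 lies left of 0 for most members, farthest for Abi3 at -1.06, and farthest right for Cfl2, Arpc1a and Wasf2, at 0.46, 0.37 and 0.34.

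Of the 18 members that differed at least 1.5-fold, 12 were lowest in library 3, or 22.2% of the members, against 16.1% of all tested genes. Among these 12 Abi3 had the widest range, 3.20-fold, with 593, 472 and 114 counts in libraries 1, 2 and 3 (chi-square adjusted p = 7.54e-31). Evl followed at 1.90-fold with 1806, 1555 and 585 counts, and Coro1b at 1.85-fold with 2737, 2790 and 1031 counts. Actg1, Stk10, Tmsb4x, Dock2 and Rac2 ranged 1.80-fold, 1.77-fold, 1.76-fold, 1.75-fold and 1.64-fold. Myl12a, Actb, Rhoh and Flna ranged 1.62-fold, 1.53-fold, 1.53-fold and 1.51-fold. In all 12 library 3 was the low one. Without library 3, Flna, Dock2 and Stk10 differed by 1.34-fold, 1.31-fold and 1.37-fold, and Evl, Rac2 and Actb by 1.04-fold each.

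The other 6 went other ways. Was, with 367, 162 and 180 counts in libraries 1, 2 and 3, ranged 2.05-fold and was lowest in library 2 (chi-square adjusted p = 7.76e-13). Cfl2, Arpc3 and Wasf2 were also lowest in library 2, over ranges of 1.85-fold, 1.63-fold and 1.55-fold. Nckap1l, highest in library 2 at 1.62-fold, and Arpc1a, highest in library 3 at 1.56-fold, were lowest in library 1. Of the 18 members, 12 kept a range of at least 1.5-fold under every scaling, filter and count table tried, and the exceptions were Tmsb4x, Cfl2, Rhoh and Flna in the M4 counts and Arpc1a and Wasf2 in the second quantification and with no filter.

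Transcript length moved with the deviations of libraries 1 and 2. The length used is the one listed for each gene in library 1, a mean over its transcripts weighted by their shares there. It thus comes from 1 of the libraries compared. Actb, for example, counts as 1384 bases, although its leading transcript has 1920. Across the 54 members, Spearman's correlation between this length and log2 deviation was -0.43 in library 1, 0.30 in library 2 and 0.05 in library 3. Across the 1868 genes averaging 1000 counts or more it was -0.22, 0.26 and -0.06. Of the 16 members longer than 3000 bases by this measure, 11 were highest in library 2, against 1172 of all 3910 tested genes of that length. Among the 16 were Dock2, Flna, Stk10 and Nckap1l. Of the 6 shorter than 1000 bases 1 was, against 265 of all 1766 such genes. Across all tested genes the correlations were weaker, at -0.10, 0.07 and 0.01 in libraries 1, 2 and 3. These correlations describe genes of the same libraries, and the part of length in the differences was not tested.

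Retained introns moved with library 3. Among 33 members with an annotated retained-intron transcript and at least 10 TPM, the median share of TPM in such transcripts was 5.00%, 7.35% and 11.0% in libraries 1, 2 and 3, and the share was highest in library 3 for 20 of the 33 (60.6%). Over all 4360 such genes the medians were 11.0%, 12.1% and 14.8%, and 55.3% were highest in library 3. By the share highest in library 3 the members were near the background. In the main table their medians were below those of all such genes in each library and rose by a larger factor from library 1 to library 3. The rises were closer in the second quantification. There the medians were 8.51%, 9.56% and 12.5% for members and 13.1%, 14.7% and 17.6% for all such genes. Coro1b had 16.1%, 11.2% and 39.9%, Nckap1l 4.93%, 7.70% and 20.8%, and Stk10 2.87%, 5.42% and 13.9%. Dock2 went the other way with 41.6%, 46.7% and 34.3%. Coro1b shares 432 exon bases with Ptprcap on the same strand, a lymphocyte gene at 881 TPM, and the part of that gene in its shares was not tested. The rise of retained introns in library 3 stands beside the lower counts there, and its part in them was not tested.

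**Figure D5:**
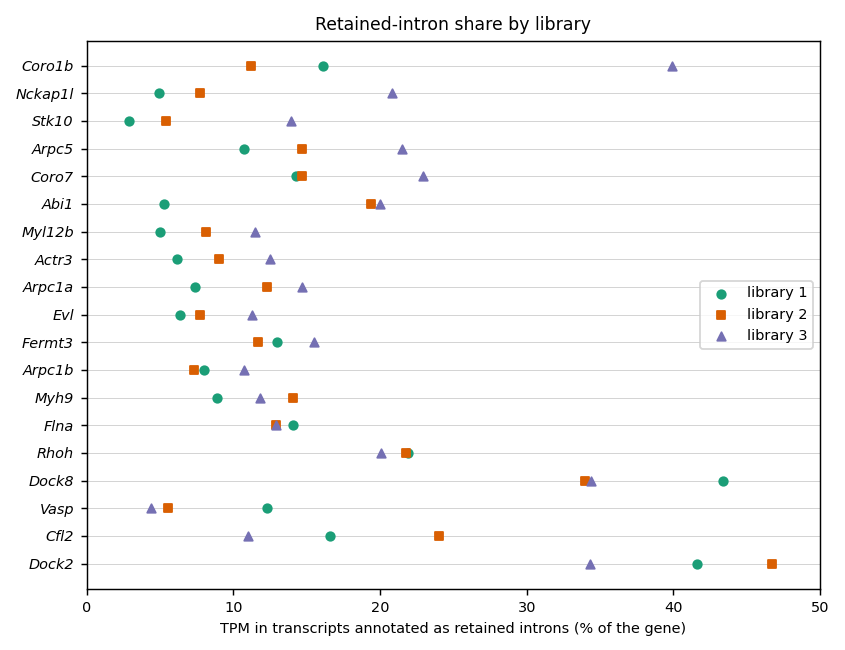
Percent of each gene's TPM in transcripts annotated as retained introns, by library, for the 19 members that reach 10% in a library, ordered by library 3 minus the mean of libraries 1 and 2. Library 3 lies above that mean in 13 of the 19, with Coro1b at 39.9% in library 3.

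The wider actin pathway was read from a second list of 89 genes, none of them members, of which 84 reached a mean count of 10. Its most abundant genes were Lsp1, an actin-binding protein of leukocytes, with 1225, 1565 and 1016 TPM in libraries 1, 2 and 3, and Tpm3, a tropomyosin, with 667, 797 and 802 TPM. Gmfg, which undoes Arp2/3 branches, had 544, 536 and 619 TPM. Capg, a capping protein of the gelsolin family, had 585, 729 and 362 TPM, Capza1 454, 525 and 364 TPM, and Cdc42se2, a small Cdc42 effector, 224, 326 and 365 TPM. By the same test 74 of the 84 (88.1%) differed between libraries, against 65.3% of all tested genes. At least 1.5-fold were 25 of them (29.8%, against 35.0%), and 17 of these were lowest in library 3 (20.2%, against 16.1%), and both 1.5-fold shares lie near the background. Of the 6 with the widest range, 3 had high counts, namely Myo1f, a class I myosin of leukocytes, with 1984, 2416 and 558 counts (2.95-fold), Arhgap4, a GTPase-activating protein, with 2611, 2836 and 832 counts (2.32-fold), and Dbnl, an actin-binding adaptor, with 2000, 2027 and 626 counts (2.21-fold). All 3 were low in library 3. Fmnl2, a formin, with 4, 12 and 15 counts, Actn2, muscle alpha-actinin, with 34, 22 and 5, and Daam1, another formin, with 77, 64 and 22, had ranges of 6.09-fold, 4.19-fold and 2.15-fold on few counts.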

How the data were processed

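Each library has 4 deposited tables, on mm10 (GRCm38) per the labels. The gene table that the authors deposited for annotation release M21 holds expected counts and TPM, derived from transcriptome alignments per the file headers, and was the main source. Its transcript table, also deposited by the authors, gives each transcript's percent of the gene's TPM. The second quantification, a transcript table derived from the reads, holds estimated counts and TPM as deposited. The last table holds the authors' whole-number counts on release M4. These were divided by coding bases, because their ratio to the expected counts was 0.828 in genes whose exons are under 25% coding and 1.87 in genes over 75% coding. The programs were not given in the sources used here, nor was the use of strand or the step that separates the technical replicates.

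Members and lists were chosen with earlier results of these data known. The 2 entries of Myl12b were summed. Rounded expected counts of genes with a mean of at least 10 were scaled by TMM (edgeR 4.0.16, R 4.3.3) and tested by chi-square with 2 degrees of freedom. The size rule needed a 1.5-fold range, with counts below 3 set to 3, and a stricter rule added edgeR's trended dispersion to the variance. The tests were checked on simulated counts with sampling noise and set fold changes. Those counts held no further spread between libraries, so the check does not cover such spread. At these depths 3 counts, the limit that a count of 0 allows, are 0.273, 0.309 and 0.450 CPM in libraries 1, 2 and 3, for counting error only. Named genes were the highest of each role, members of the complexes and paralogue families described, every member with a 1.5-fold range, and, of the wider pathway, the 6 highest and the 6 widest. Alternatives were DESeq2 1.42.0 size factors, total counts, other filters, the other tables and leaving out each library. Coding sequences were aligned with Biopython 1.88. Protein sequences were not used here. A further paralogue pair, beyond the 15 described, is not reported here.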

Additional observations from a re-analysis of the deposited data

How the results depend on the processing

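The number of members that differed between libraries beyond sampling noise was 52 or 53 under every scaling, filter and count table tried and ran from 41 to 51 with a library left out. The number with a range of at least 1.5-fold was 15 to 19 under those settings but 3 to 14 with a library left out, namely 14 without library 1, 8 without library 2 and 3 without library 3. Fewer libraries give a smaller range by construction. With the dispersion of edgeR added, 0 members passed under every setting. The gene listed as the blood-cell form was higher in all libraries in 14 or 15 of the 15 listed pairs. The range of the Arp2/3 positions was 2.37 to 3.36. The median deviation in library 3 lay between -0.15 and -0.23, under alternatives that were chosen after seeing the data. Mean levels moved by more than 1 SD for 50 of 54 members in the second quantification, whose TPM was a median of 0.562 of the main TPM for members and 0.579 for all genes of at least 10 TPM, and for 45 of 54 in the M4 counts per coding base. Across the members, levels in the main table had a Spearman correlation of 1.00 with the second quantification and 0.97 with the M4 counts. The share of the leading transcript moved by more than 1 SD for 34 of 53 members. No paired analysis was possible because there is 1 group. Vcl, Was and Cfl2 rest on the fewest counts, 96, 709 and 890 over the libraries.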
